A study of Mus musculus with 24 samples.

Results

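The circadian clock genes described here are Clock, Npas2, Per1, Per2, Per3, Cry1, Cry2, Nr1d1, Nr1d2 and Dbp, which were taken from the deposited table by their gene symbol and make up 10 of its 56748 genes. All 10 were counted in each of 24 RNA-sequencing libraries, which came from the neural retina and the eye cup (RPE, choroid and sclera) of 12 mice. The mice were PRDM13-OE mice or wildtype littermates, all in the C57BL/6J background and kept on 12 hours of light and 12 hours of dark, and male and female animals were used in the study. PRDM13-OE mice carried 1 copy of a cassette at Rosa26 in which the ubiquitous EF-1α promoter drives the reverse tetracycline transactivator and the TRE3G promoter drives human PRDM13. The 4 groups of 3 mice were PRDM13-OE with dox, PRDM13-OE untreated, wildtype with dox and wildtype untreated, and every group gave 3 retinas and the 3 eye cups of the same mice. Dox was given from P28 for 72 hours in the drinking water, at 2 mg/mL with 10% sucrose, so that dox and sucrose cannot be told apart. The hour of dissection is not given in the sources used here, and human PRDM13 reads were not analysed here.

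The mammalian clock is a feedback loop of transcription. CLOCK, or its paralog NPAS2, pairs with ARNTL (BMAL1) on E-box sequences and switches on the Period and Cryptochrome genes, whose proteins then shut the pair off, while NR1D1 and NR1D2 (REV-ERBα and REV-ERBβ) repress Arntl in a second loop and DBP activates genes through D-box sequences. In mouse tissues the transcripts of Dbp, Nr1d1 and the Period genes cycle out of step with those of Arntl and Npas2, and the retina holds a clock of its own that is known for the rhythms of dopamine, melatonin and photoreceptor genes.

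Gene coordinates below are in GRCm39, the build of the deposited table. The start regions of 9 of the members were present in the RefSeq promoter table (GRCm38.p6, 250 bases before to 50 after a start of transcription), in 12 windows, and Per2 was the missing entry. The letters CACGTG (the E-box core), TTATGTAA and TTACGTAA (D-box forms), TGACGTCA (the cAMP response element) and TAGGTCA and TGGGTCA (bound by the ROR and REV-ERB receptors) were searched on both strands. CACGTG was found in the windows of 2 members, Per1 and Cry1, and TTATGTAA in that of 1 member, Per3, which held it at 2 places. Over all 32851 windows of the table, CACGTG was present in 7.15%, TTATGTAA in 0.938%, TTACGTAA in 0.119%, TGACGTCA in 1.79%, TAGGTCA in 2.61% and TGGGTCA in 3.98%. Counted by gene, as the members were, the shares over 27025 genes were 8.09%, 1.11%, 0.126%, 2.03%, 2.97% and 4.57% in the same order. The 3 windows with a match are shown because they belong to the single member called in the retina (Per3), the member with the highest correlation of retina and eye cup over the mice (Per1) and a member that differed between the tissues (Cry1). They are written 5′ to 3′ along the gene, with the matches in capitals, and are chr4:151044616-151044915, minus strand for Per3, chr11:69098699-69098998, plus strand for Per1 and chr10:85185005-85185304, minus strand for Cry1.
Per3: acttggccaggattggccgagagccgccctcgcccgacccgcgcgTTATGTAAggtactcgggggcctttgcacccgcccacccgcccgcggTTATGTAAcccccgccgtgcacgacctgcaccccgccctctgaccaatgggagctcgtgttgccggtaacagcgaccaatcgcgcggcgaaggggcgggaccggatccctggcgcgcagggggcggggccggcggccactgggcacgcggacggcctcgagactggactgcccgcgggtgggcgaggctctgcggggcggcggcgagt
Per1: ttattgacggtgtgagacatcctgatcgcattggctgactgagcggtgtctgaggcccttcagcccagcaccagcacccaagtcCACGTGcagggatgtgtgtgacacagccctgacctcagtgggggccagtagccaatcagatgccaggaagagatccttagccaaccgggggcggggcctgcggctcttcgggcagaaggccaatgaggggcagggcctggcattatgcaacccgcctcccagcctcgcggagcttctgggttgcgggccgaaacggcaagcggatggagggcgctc
Cry1: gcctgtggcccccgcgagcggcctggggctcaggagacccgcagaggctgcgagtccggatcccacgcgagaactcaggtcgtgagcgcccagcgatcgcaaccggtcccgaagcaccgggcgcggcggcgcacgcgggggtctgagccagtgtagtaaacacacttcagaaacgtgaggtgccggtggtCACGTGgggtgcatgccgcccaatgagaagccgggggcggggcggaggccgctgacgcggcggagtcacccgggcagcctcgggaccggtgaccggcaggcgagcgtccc

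Total counts per library were between 15825059 and 24908314, and no pair of libraries was identical. The libraries were checked against marker genes. The 12 rod markers summed to 76803 to 83516 CPM (counts scaled to library size with TMM factors) in the 9 retinas other than the PRDM13-OE retinas with dox, where they summed to 57599 to 64653 CPM. In the eye cups the same rod markers ran from 3456 to 51156 CPM, while the 8 RPE markers summed to 6538 to 48609 CPM, compared with 56.5 to 354 CPM in the retinas, so that RNA of rods in the eye cups differed more than 10-fold between libraries. The 9 lens crystallins summed to 12157, 5386 and 145 CPM in the wildtype retinas with dox, compared with 30.6 to 888 CPM in the other retinas. In the PRDM13-OE retinas with dox they summed to 30.6 to 49.9 CPM. The 2 groups with dox thus did not overlap in this sum, so that as a covariate it cannot be fully separated from genotype there. The 5 red blood cell markers summed to 0.706 to 1.19 CPM in the PRDM13-OE retinas with dox and to 21.6 to 77.9 CPM in the others. In bulk tissue, fewer cells of a type and less RNA per cell cannot be told apart.

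All 10 clock genes were detected in both tissues, and their order was much the same in each. By FPKM, the deposited length-scaled value that allows genes to be compared, the retina held most of Nr1d1, at a median of 84.6 (75.2 to 96.9) over the 12 retinas, and of Dbp, at 78.8 (60.6 to 91.7). These 2 ranges overlapped. Nr1d2 came next at 35.0 (32.9 to 39.1) and did not overlap with Cry2 at 27.3 (24.1 to 31.2). The ranges of Cry2, Per1 and Cry1 overlapped, with Per1 at 21.3 (15.7 to 29.2) and Cry1 at 21.1 (20.1 to 24.3). The low end of the order was Clock at 7.11 (6.41 to 7.87), Per3 at 4.95 (4.39 to 6.01), Per2 at 3.93 (2.67 to 4.42) and Npas2 at 0.586 (0.422 to 0.771), and of these neighbours only Per3 and Per2 overlapped.

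In the eye cup the first place went to Dbp, at 144 (119.6 to 241) FPKM, above Nr1d1 at 97.1 (59.9 to 111), and these ranges did not overlap. Nr1d2 followed at 27.3 (22.6 to 29.8) and Per1 at 19.8 (11.9 to 26.7). Cry2 was at 12.1 (6.98 to 17.7) and Cry1 at 8.35 (5.45 to 16.9) FPKM. Per2, Per3 and Clock overlapped one another at 5.40 (4.47 to 10.7), 4.23 (2.68 to 6.12) and 3.98 (2.91 to 5.71) FPKM. Npas2 was last at 0.944 (0.0284 to 1.52), with a lowest library, the untreated PRDM13-OE eye cup 3, in which it had 2 counts. From Nr1d2 downwards each member's range overlapped with that of the next, apart from Clock and Npas2.

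**Figure D1:**
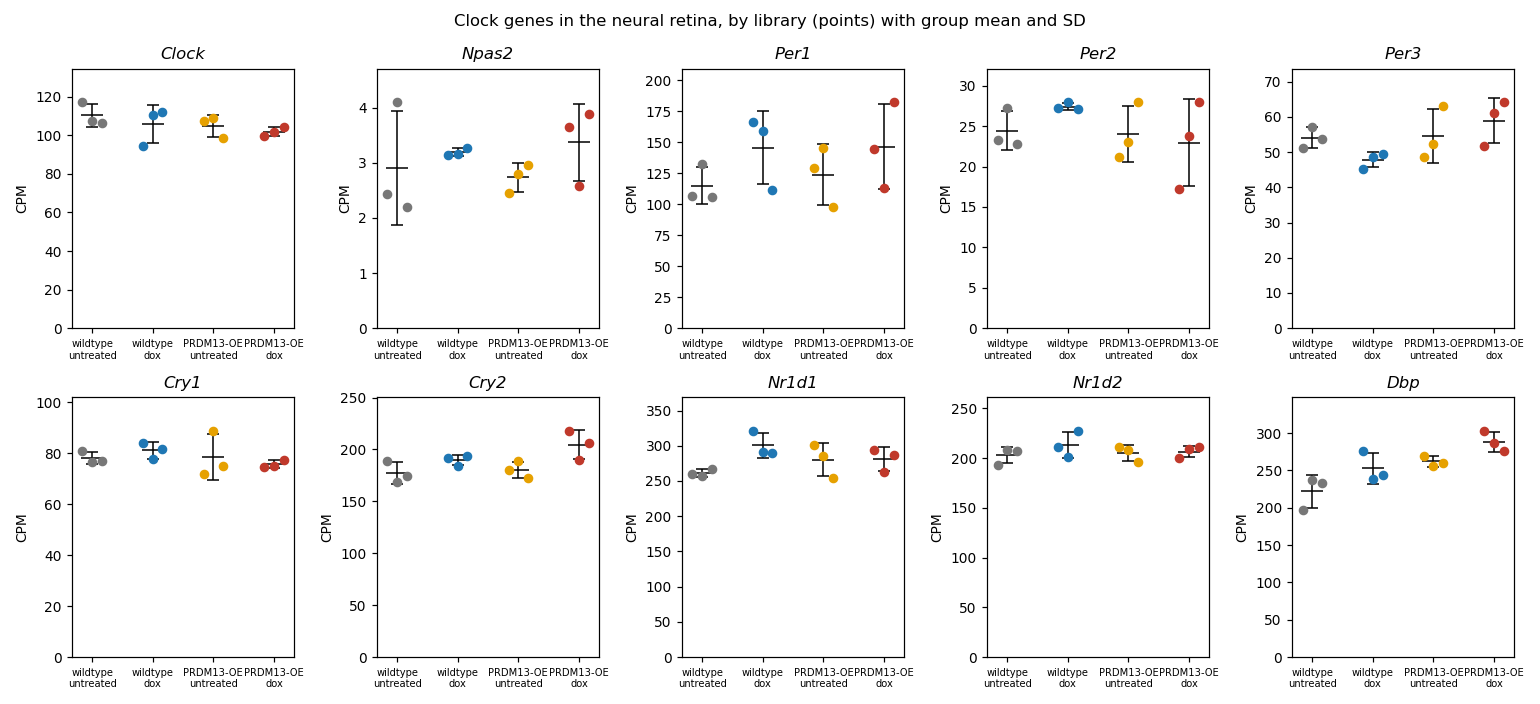
Expression of the 10 clock genes in the neural retina in CPM, with 1 point for each of the 3 libraries of a group and the group mean and SD as the bar. The axes start at 0, and the groups lie close together for all genes, with the PRDM13-OE retinas with dox above the wildtype retinas with dox for Per3.

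The first comparison asked whether 72 hours of elevated PRDM13 changed the clock genes of the retina, and it set the PRDM13-OE retinas with dox against the wildtype retinas with dox. A single member, Per3, was higher and none was lower, while 2575 of 20560 (12.5%) of all genes tested passed at an edgeR adjusted p under 0.05, so the members' 1 of 10 was near the background. The median log2-fold change of the 10 members was −0.02, compared with 0.01 over all genes, and the members lay between −0.26 and 0.30. No member reached the log2-fold change of 1 that the study used as its cutoff. DESeq2 called 2 members, Per3 and Dbp, and 2493 of the 16568 genes it tested (15%), and these were also the 2 with an unadjusted edgeR p under 0.05, which 5479 of all 20560 genes had.

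Per3 (ENSMUSG00000028957, chr4:151088109-151129122, minus strand), a Period gene that is less needed for rhythm than Per1 and Per2, was at 51.7, 61.0 and 64.1 CPM in the PRDM13-OE retinas with dox and at 45.3, 48.7 and 49.4 CPM in the wildtype retinas with dox. These 2 groups did not overlap, but the untreated retinas lay across both, at 48.5, 52.2 and 63.1 CPM in PRDM13-OE and 51.3, 57.2 and 53.7 CPM in wildtype. With dox, Per3 was thus 58.9 ± 6.47 against 47.8 ± 2.16 CPM (SD, n = 3 each), with a log2-fold change 0.30, SE 0.08, edgeR adjusted p = 0.0281. The call was lost without PRDM13-OE retina 2 (edgeR adjusted p = 0.113) or 3 (0.113) or wildtype retina 1 (0.0875) or 2 (0.0562), and with the lens crystallin sum as a covariate over all 12 retinas the values were a log2-fold change 0.22, edgeR adjusted p = 0.604. In wildtype retinas Per3 differed by −0.18 (SE 0.07, edgeR adjusted p = 0.446) between dox and no dox, and the test of the interaction of genotype and dox gave 0.29 (SE 0.13, edgeR adjusted p = 0.332). Per3 lies inside the span of Camta1 on the same strand, which had a median of 3807 counts per retina.

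Among the activators of the loop, Clock (ENSMUSG00000029238, chr5:76357715-76452639, minus strand) was at 99.4, 102 and 104 CPM in the PRDM13-OE retinas with dox, 94.5, 111 and 112 CPM in the wildtype retinas with dox, 107, 109 and 98.5 CPM in untreated PRDM13-OE and 117, 107 and 106 CPM in untreated wildtype. The PRDM13-OE retinas with dox lay below the untreated wildtype retinas without overlap, and the other pairs of groups overlapped. The genotypes with dox differed by −0.06 (SE 0.07, edgeR adjusted p = 0.624). Npas2 (ENSMUSG00000026077, chr1:39232812-39402317, plus strand), the paralog of Clock, had only 40 to 75 counts in a retina and stood between 2.19 and 4.10 CPM over the 12 retinas. Its difference of 0.07 (SE 0.20, edgeR adjusted p = 0.866) was therefore the least precise of the 10.

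None of the other 4 repressor genes passed. Per1 (ENSMUSG00000020893, chr11:68986043-69000786, plus strand), the Period gene that also answers to light and stress signals, was at 144, 113 and 182 CPM in the PRDM13-OE retinas with dox and 167, 159 and 112 CPM in the wildtype retinas with dox. Without dox it was at 129, 145 and 97.4 CPM in PRDM13-OE and 106, 132 and 106 CPM in wildtype. The 4 groups overlapped, and the genotypes with dox did not pass (log2-fold change 0.0023, SE 0.16, edgeR adjusted p = 0.994).

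Per2 (ENSMUSG00000055866, chr1:91343704-91387046, minus strand), whose protein is a core repressor, was at 17.2, 23.7 and 27.9 CPM in the PRDM13-OE retinas with dox and at a near constant 27.2, 27.9 and 27.1 CPM in the wildtype retinas with dox. Only PRDM13-OE retina 3 reached the wildtype values. The difference did not pass (log2-fold change −0.26, SE 0.13, edgeR adjusted p = 0.244), although it did in the fit without a filter on low counts (log2-fold change −0.26, edgeR adjusted p = 0.0277). The untreated retinas, at 21.2, 23.0 and 27.9 CPM in PRDM13-OE and 23.3, 27.2 and 22.8 CPM in wildtype, overlapped with both groups with dox.

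Cry1 (ENSMUSG00000020038, chr10:84967564-85020928, minus strand), a strong repressor of the CLOCK and ARNTL pair, was at 74.4, 75.1 and 77.4 CPM in the PRDM13-OE retinas with dox and 84.1, 77.6 and 81.8 CPM in the wildtype retinas with dox, a difference of −0.11 (SE 0.06, edgeR adjusted p = 0.253). All 3 PRDM13-OE values were below the 3 wildtype values, without overlap, and the difference did not pass. Cry2 (ENSMUSG00000068742, chr2:92233991-92264388, minus strand), its partner, was at 217, 190.2 and 206 CPM and 192, 184 and 194 CPM in the same groups, which overlapped, and differed by 0.10 (SE 0.06, edgeR adjusted p = 0.297). With library size in place of TMM factors, which moved the median of all genes to 0.09, Cry2 passed (log2-fold change 0.19, edgeR adjusted p = 0.0468).

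In the second loop, Nr1d1 (ENSMUSG00000020889, chr11:98658758-98666159, minus strand) was at 294, 262 and 287 CPM in the PRDM13-OE retinas with dox and 320.5, 291 and 289.9 CPM in the wildtype retinas with dox, and Nr1d2 (ENSMUSG00000021775, chr14:4230569-4265642, plus strand) at 200.0, 209 and 211 CPM and 211, 202 and 227 CPM. Both pairs of groups overlapped. Their differences were −0.10 (SE 0.06, edgeR adjusted p = 0.312) for Nr1d1 and −0.05 (SE 0.06, edgeR adjusted p = 0.631) for Nr1d2. Nr1d1 shares 1075 bases with Thra on the opposite strand, and since the sources do not say whether the counting used strand, reads from that stretch cannot be told apart.

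Dbp (ENSMUSG00000059824, chr7:45354512-45359627, plus strand), the output factor that is driven directly by E-boxes, was the most graded of the members. It was lowest in the untreated wildtype retinas, at 197, 237 and 233 CPM, and highest in the PRDM13-OE retinas with dox, at 302, 286 and 276 CPM. The wildtype retinas with dox, at 277, 239 and 243 CPM, and the untreated PRDM13-OE retinas, at 269.8, 256 and 261 CPM, lay in between. The genotypes differed by 0.18 (SE 0.06, edgeR adjusted p = 0.0881) with dox and by 0.25 (SE 0.08, edgeR adjusted p = 0.995) without, and dox differed from no dox by 0.19 (SE 0.08, edgeR adjusted p = 0.522) in wildtype and 0.14 (SE 0.06, edgeR adjusted p = 0.253) in PRDM13-OE, so that each of the 4 differences was positive and none passed. The genotypes with dox overlapped by a single retina, and the groups of the other 3 differences did not overlap. These comparisons share groups and are not independent. Dbp was called with dox between the genotypes by DESeq2 (adjusted p = 0.0340), and by edgeR with library size in place of TMM factors (adjusted p = 0.0153), without a filter on low counts (0.0152), with a replicate block (0.0319) and without wildtype retina 1 (edgeR adjusted p = 0.0159), the retina with the largest lens crystallin sum. These were 5 of the 13 alternative settings. The others did not call it, among them 12 libraries in one fit (log2-fold change 0.19, edgeR adjusted p = 0.126) and the lens crystallin covariate (log2-fold change 0.23, edgeR adjusted p = 0.459). Dbp shares 737 bases with Sphk2 on the opposite strand, which had a median of 298 counts per retina.

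The other retina comparisons asked about dox within each genotype, about the cassette without dox, and about their interaction, and edgeR called 0 members in all 4. Between wildtype retinas with and without dox, where 1 of 20631 (0.00485%) of all genes passed, 4 members (Per1, Per3, Nr1d1 and Dbp) had an unadjusted edgeR p under 0.05 and DESeq2 called 0. Over all 20631 genes 1922 had such a p. The 10 members' log2-fold changes lay between −0.18 and 0.35. Nr1d1 was the closest, at 320.5, 291 and 289.9 CPM with dox and 259.7, 257 and 267 CPM without, 2 groups that did not overlap (log2-fold change 0.20, SE 0.06, edgeR adjusted p = 0.306). Per1 was 0.35 (SE 0.14, edgeR adjusted p = 0.465) and passed without wildtype retina 3 with dox (log2-fold change 0.51, edgeR adjusted p = 0.0337), the one dox retina of this genotype whose Per1 was near the untreated level.

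Between PRDM13-OE retinas with and without dox, 1031 of 20603 (5.00%) of all genes passed. Of the members, 2 (Cry2 and Dbp) had an unadjusted edgeR p under 0.05, as had 3216 of all genes, and DESeq2 called 0. The 10 members lay between −0.06 and 0.30 here, and between −0.07 and 0.25 for the untreated genotypes. Cry2 was at 217, 190.2 and 206 CPM with dox and 180.4, 188 and 173 CPM without, and the groups did not overlap (log2-fold change 0.18, SE 0.06, edgeR adjusted p = 0.169). Between the untreated genotypes, where 1 of 20668 (0.00484%) of all genes passed, only Dbp of the members had an unadjusted edgeR p under 0.05, as had 778 of all genes, and DESeq2 called 0 members. In the interaction of genotype and dox, 682 of 22538 (3.03%) of all genes passed, 1 member (Per3) had an unadjusted edgeR p under 0.05, as had 3247 of all genes, and DESeq2 called 0. The members' interaction terms lay between −0.23 and 0.29.

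**Figure D2:**
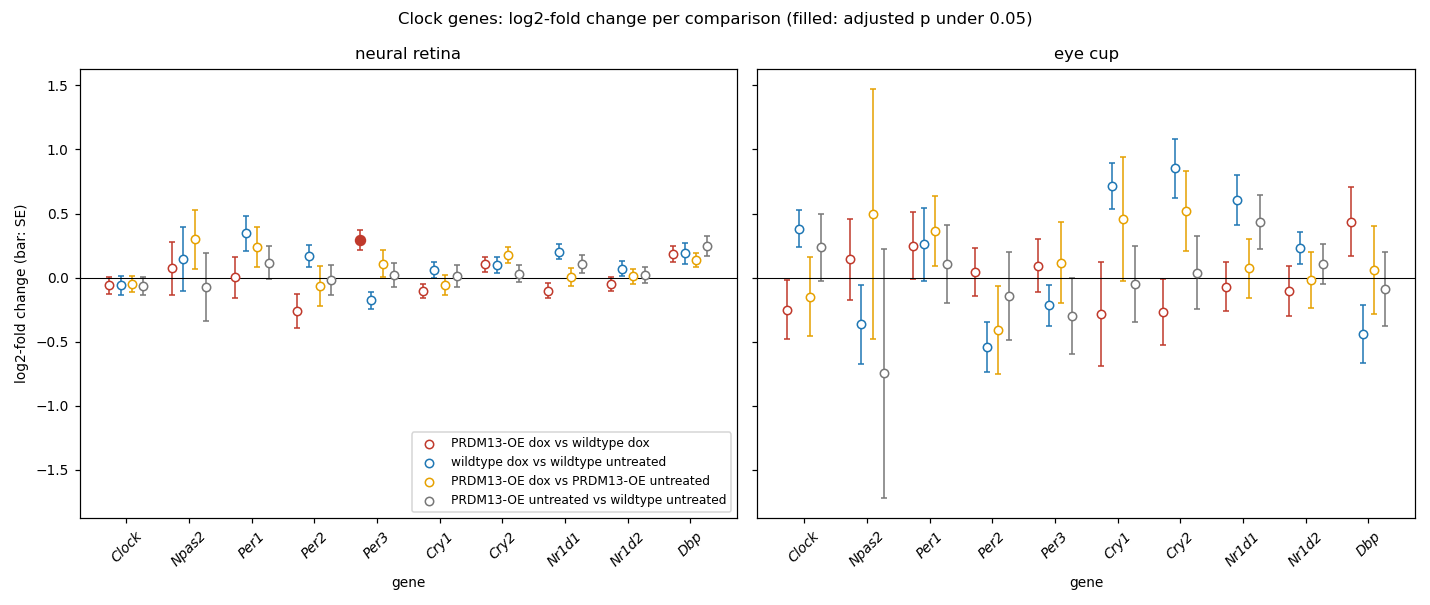
Log2-fold change of the 10 clock genes in 4 comparisons, in the neural retina (left) and the eye cup (right), with the SE as the bar. A filled point passed an edgeR adjusted p under 0.05, which only Per3 did, and the eye cup bars are wider than those of the retina, most of all for Npas2.

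Of 18 other clock genes listed, Rorb alone was called by edgeR in a retina comparison. Between the genotypes with dox 1 of the 18 passed and was higher in PRDM13-OE retinas. The 18 lay between −0.59 and 0.39 there, 7 had an unadjusted edgeR p under 0.05 and DESeq2 called 2 (Rorb and Ciart). Over all genes 2575 of 20560 (12.5%) passed, 5479 had such a p and DESeq2 called 2493 of 16568 (15%). Arntl, the partner of CLOCK, was at 76.9, 83.0 and 87.5 CPM and 71.7, 73.8 and 80.4 CPM (log2-fold change 0.13, SE 0.07, edgeR adjusted p = 0.251). The called gene was Rorb, a nuclear receptor of photoreceptor and amacrine development that also acts on clock promoters. It was at 257, 268 and 274 CPM in the PRDM13-OE and 209.6, 225 and 172 CPM in the wildtype retinas with dox, without overlap (log2-fold change 0.39, SE 0.08, edgeR adjusted p = 0.00765). The call was lost with 12 libraries in one fit (log2-fold change 0.40, edgeR adjusted p = 0.0527). With the lens crystallin covariate, whose values did not overlap between these groups, Rorb passed at a log2-fold change 0.82, edgeR adjusted p = 0.0139. The untreated wildtype retinas, at 288, 268 and 227 CPM, reached the PRDM13-OE level with dox, and the untreated PRDM13-OE retinas were at 228, 167 and 251 CPM. In the other retina comparisons of 2 groups edgeR called 0 of the 18, with 5, 4 and 0 at an unadjusted p under 0.05 for dox in wildtype, dox in PRDM13-OE and the untreated genotypes, and DESeq2 called 1 (Rorb), 1 (Ciart) and 0. Over all genes 1922, 3216 and 778 had such a p. In the interaction of genotype and dox Rorb was the 1 gene of the 18 called by edgeR, at 0.68 (SE 0.17, edgeR adjusted p = 0.0414), and DESeq2 called 0. Of all genes 682 of 22538 (3.03%) passed there.

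Among the clock input and output genes of the retina, one receptor and one enzyme of photoreceptors passed. Of the 11 listed, 8 were tested between the genotypes with dox, and 1 was higher and 1 lower, by edgeR and by DESeq2. Over all genes edgeR called 12.5% in this comparison and DESeq2 15%. Drd4, the dopamine receptor of photoreceptors, whose transcript is known to cycle there, was at 473, 499 and 432 CPM in the PRDM13-OE and 258, 251 and 262 CPM in the wildtype retinas with dox, and at 320.2, 281 and 291 CPM and 207, 312 and 249 CPM without dox. The 3 PRDM13-OE retinas with dox were above all 9 others (log2-fold change 0.86, SE 0.06, edgeR adjusted p = 2.33e-06). Against untreated PRDM13-OE retinas the difference was 0.65 (SE 0.07, edgeR adjusted p = 7.52e-05), and this comparison called Drd4 and Adcy1 again, Sgk1 (log2-fold change 0.65, SE 0.13, edgeR adjusted p = 0.0102) of the glucocorticoid-responsive genes and Junb (log2-fold change 0.73, SE 0.18, edgeR adjusted p = 0.0378) of the immediate early genes, of which DESeq2 called Drd4 and Adcy1. The call of Junb was lost without PRDM13-OE retina 1 with dox (log2-fold change 0.47, edgeR adjusted p = 0.145), without retina 3 with dox (0.0985) or without the untreated PRDM13-OE retinas 2 or 3 (0.113 and 0.113). That of Sgk1 was lost without PRDM13-OE retina 1 or 3 with dox (edgeR adjusted p = 0.0511 and 0.0573) and with 12 libraries in one fit (0.0555). For dox in wildtype retinas and for genotype without dox, edgeR and DESeq2 called 0 genes of these 3 lists, with 1 gene (of the input and output list) at an unadjusted edgeR p under 0.05 in each.

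Adcy1, an adenylyl cyclase whose transcript also cycles in photoreceptors, was lower. It was at 173, 171 and 202 CPM in the PRDM13-OE retinas with dox, compared with 339.9, 426 and 414 CPM in the wildtype retinas with dox, 402, 415 and 370.3 CPM in untreated PRDM13-OE and 404, 385 and 389 CPM in untreated wildtype. The genotypes with dox differed by −1.12 (SE 0.09, edgeR adjusted p = 6.63e-06). The rod marker sum and the Drd4 and Adcy1 levels all set the PRDM13-OE retinas with dox apart from the rest, and the part of rod content in these differences was not tested. Th, the rate-limiting enzyme of dopamine synthesis, was at 4.88, 3.96 and 3.13 CPM and 4.00, 3.49 and 4.23 CPM (log2-fold change 0.02, SE 0.20, edgeR adjusted p = 0.958), and Opn4, melanopsin of the intrinsically photosensitive ganglion cells, at 5.83, 5.82 and 5.18 CPM and 7.72, 5.96 and 7.50 CPM (log2-fold change −0.34, SE 0.15, edgeR adjusted p = 0.187).

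Signals that can shift Per1, glucocorticoids and neuronal activity, were read from short lists of their targets. Between the genotypes with dox, 2575 of 20560 (12.5%) of all genes passed. The 6 glucocorticoid-responsive genes had log2-fold changes between −0.33 and 0.55. Of these, 2 were higher in PRDM13-OE and 0 were lower. They were Sgk1, at 384, 361 and 391 CPM against 317, 275 and 180.3 CPM (log2-fold change 0.55, SE 0.15, edgeR adjusted p = 0.0297), and Klf9, at 241, 214 and 259 CPM against 201, 197 and 208 CPM (log2-fold change 0.23, SE 0.07, edgeR adjusted p = 0.0412). Of 7 immediate early genes, which lay between 0.19 and 1.67, 2 were higher and 0 lower. Junb was at 65.5, 34.9 and 46.4 CPM against 30.6, 28.6 and 20.7 CPM (log2-fold change 0.87, SE 0.20, edgeR adjusted p = 0.0128) and Egr1 at 298, 129 and 141 CPM against 98.7, 58.6 and 20.1 CPM (log2-fold change 1.67, SE 0.44, edgeR adjusted p = 0.0282). DESeq2 called Klf9 and Junb and not Sgk1 or Egr1 (adjusted p = 0.0870 and 0.0870). With the lens crystallin sum as a covariate, 3 of these 4 calls were lost, with a log2-fold change 0.13, edgeR adjusted p = 0.782 for Klf9, a log2-fold change 1.14, edgeR adjusted p = 0.0570 for Sgk1 and a log2-fold change 1.26, edgeR adjusted p = 0.0705 for Junb, while Egr1 passed with a log2-fold change 4.30, edgeR adjusted p = 0.00505. The lens crystallin sums of the 2 groups did not overlap, so these covariate fits reach beyond values that both groups held. With 12 libraries in one fit Sgk1, Klf9 and Egr1 did not pass. Leaving out single retinas ended the calls of Sgk1 (any PRDM13-OE retina), Klf9 (PRDM13-OE retinas 1 or 3, wildtype retinas 1 or 2) and Egr1 (any PRDM13-OE retina or wildtype retina 2), with edgeR adjusted p-values of up to 0.166.

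**Figure D3:**
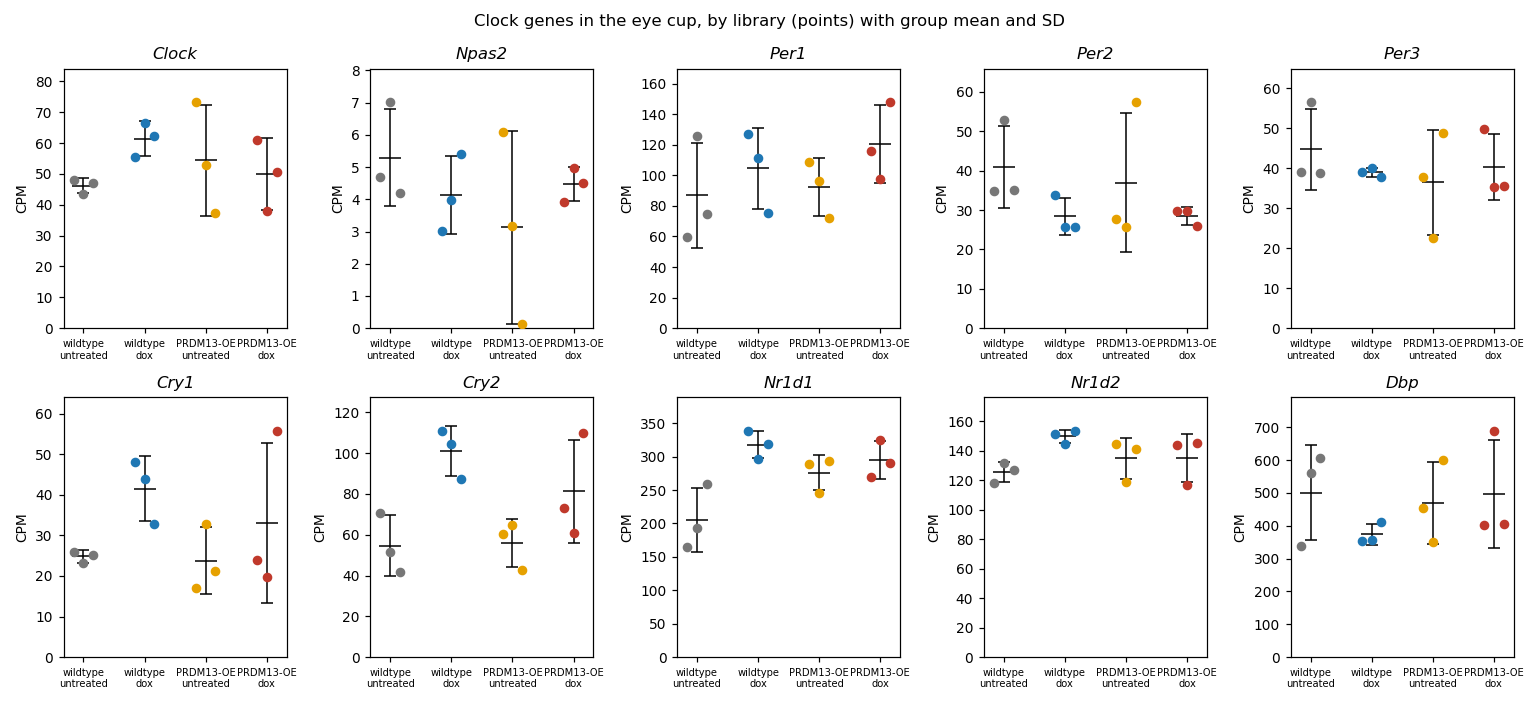
Expression of the 10 clock genes in the eye cup in CPM, with 1 point for each of the 3 libraries of a group and the group mean and SD as the bar. Cry1, Cry2, Per2 and Dbp spread more than in the retina, and Npas2 is near 0 in 1 untreated PRDM13-OE eye cup.

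In the eye cup, edgeR called 0 members in each of the 5 comparisons, and few genes passed at all. Between the genotypes with dox, 4 of 21758 (0.0184%) of all genes passed, and 0 members had an unadjusted edgeR p under 0.05, which 1792 of all genes had, or were called by DESeq2. The 10 members lay between −0.28 and 0.44. Dbp was at 401, 687 and 405 CPM in PRDM13-OE and 355, 358 and 411 CPM in wildtype eye cups (log2-fold change 0.44, SE 0.27, edgeR adjusted p = 0.612), and its range in PRDM13-OE was set by eye cup 2. Cry1 was at 23.8, 19.6 and 55.6 CPM and 48.0, 43.9 and 32.7 CPM (log2-fold change −0.28, SE 0.40, edgeR adjusted p = 0.809). PRDM13-OE eye cup 3 had the highest Cry1 of all 12 eye cups, and without it Cry1 was lower in PRDM13-OE (log2-fold change −0.90, edgeR adjusted p = 0.0479). That eye cup also had the largest rod marker sum of its group, at 13658, 6190.1 and 39703 CPM for eye cups 1, 2 and 3.

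The smallest eye cup p-values of the members were those between wildtype mice with and without dox, where 0 of 21799 (0%) of all genes passed and 6517 had an unadjusted edgeR p under 0.05. The median log2-fold change of all genes was −0.05, and 0.13 with library size in place of TMM factors, while that of the members was 0.25, with a range between −0.54 and 0.85. Of the members, 5 (Clock, Per2, Cry1, Cry2 and Nr1d1) had an unadjusted edgeR p under 0.05, and DESeq2 called 3 (Cry1, Cry2 and Nr1d1), and 4152 of the 16717 genes it tested (24.8%). Cry2 was at 111, 105 and 87.2 CPM with dox and 70.8, 51.5 and 41.6 CPM without, and the groups did not overlap (log2-fold change 0.85, SE 0.23, edgeR adjusted p = 0.0763). Cry1 was at 48.0, 43.9 and 32.7 CPM and 26.0, 23.1 and 25.3 CPM, again without overlap (log2-fold change 0.71, SE 0.18, edgeR adjusted p = 0.0741).

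Nr1d1 was at 338, 297 and 319 CPM and 165, 193 and 259 CPM (log2-fold change 0.61, SE 0.19, edgeR adjusted p = 0.0970), and Clock at 55.3, 66.4 and 62.4 CPM and 48.1, 43.4 and 47.2 CPM (log2-fold change 0.38, SE 0.14, edgeR adjusted p = 0.132). Neither pair of groups overlapped. Per2 was at 33.7, 25.7 and 25.7 CPM against 34.9, 52.9 and 35.0 CPM, also without overlap, with the lower values under dox (log2-fold change −0.54, SE 0.19, edgeR adjusted p = 0.120). The rod markers were higher with dox, as were the values of Cry1, Cry2, Nr1d1 and Clock (none past the test) and unlike those of Per2, at 51156, 38881 and 26923 CPM with dox and 25681, 3456 and 13415 CPM without, and the RPE markers moved the other way, at 8679, 9962 and 18499.5 CPM and 25671, 35311 and 40955 CPM. With the rod marker sum as a covariate over the 12 eye cups, the log2-fold change of Cry1 was 0.11, that of Cry2 0.45 and that of Nr1d1 0.72, with edgeR adjusted p-values of 0.986, 0.909 and 0.909.

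Dox within PRDM13-OE eye cups, the untreated genotypes and the interaction gave 0 members with an unadjusted edgeR p under 0.05 and 0 by DESeq2, where 3 of 21604 (0.0139%), 0 of 21588 (0%) and 0 of 23837 (0%) of all genes passed. Over all genes 894, 404 and 1526 had an unadjusted edgeR p under 0.05 and DESeq2 called 59, 3 and 32. The median of all genes for dox in PRDM13-OE was 0.05, and 0.17 with library size in place of TMM factors. The members' log2-fold changes lay between −0.41 and 0.52 for dox in PRDM13-OE and between −0.75 and 0.43 for the untreated genotypes, and the interaction terms between −0.53 and 0.86. The low end of the range for the untreated genotypes was Npas2, at 6.09, 3.17 and 0.124 CPM in untreated PRDM13-OE and 4.68, 7.00 and 4.20 CPM in untreated wildtype, with an SE of 0.97. The other clock genes gave 0 edgeR calls of 18 in each of the 5 eye cup comparisons. For wildtype with and without dox, 6 of them had an unadjusted edgeR p under 0.05 and DESeq2 called 3, among them Hlf and Rora, and the other 4 comparisons had 0 or 1 at an unadjusted p under 0.05 and 0 by DESeq2. The input and output genes, the glucocorticoid-responsive genes and the immediate early genes also gave 0 edgeR calls in each eye cup comparison. For wildtype with and without dox they had 4, 3 and 0 genes at an unadjusted edgeR p under 0.05, and DESeq2 called Drd4, Adcy1 and Aanat of the first list and Sgk1 and Tsc22d3 of the second. In the other 4 eye cup comparisons each of the 3 lists had at most 2 genes at an unadjusted p under 0.05, and DESeq2 called 1 gene, Adcy1, between the genotypes with dox.

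Single eye cups stood apart from the rest of their group. The untreated PRDM13-OE eye cup 3 and the untreated wildtype eye cup 2 had the highest Per2 of the 12, at 57.3 and 52.9 CPM, and low Arntl, which was at 11.4, 20.7 and 6.71 CPM in untreated PRDM13-OE and 24.4, 3.96 and 12.4 CPM in untreated wildtype. Per3 was also highest of its group in these 2 eye cups, at 37.8, 22.6 and 48.9 CPM and 39.0, 56.5 and 38.8 CPM. The untreated eye cups held 14335, 22726 and 7944 CPM and 25681, 3456 and 13415 CPM of rod markers, so that the 2 libraries with high Per2 were the lowest of their groups. In the retinas of the same mice, Per2 was at 21.2, 23.0 and 27.9 CPM and 23.3, 27.2 and 22.8 CPM and Arntl at 73.3, 87.7 and 79.2 CPM and 87.3, 78.1 and 86.5 CPM. In the retinas of these 2 mice Per2 was the highest of its group in both, within the range of the other retinas, and Arntl was the lowest of its group in the wildtype mouse only.

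Each clock gene was therefore set against the summed rod markers over the 12 eye cups on the log2 scale, a relation chosen after the eye cup values were seen. Over all genes, 5435 of 23837 (22.8%) passed at a permutation p adjusted over all genes under 0.05, and 3 of the 10 members did. Cry1 and Cry2 were high where the rod sum was high, with Pearson r = 0.79 (permutation p = 0.00250, adjusted p = 0.0180) and Spearman rho = 0.84 (permutation p = 0.00133, adjusted p = 0.0109) for Cry1, and Pearson r = 0.80 (permutation p = 0.00231, adjusted p = 0.0170) and Spearman rho = 0.87 (permutation p = 0.000500, adjusted p = 0.00559) for Cry2. Dbp ran the other way, with Pearson r = −0.81 (permutation p = 0.00163, adjusted p = 0.0136) and Spearman rho = −0.70 (permutation p = 0.0147, adjusted p = 0.0564), of which the rank relation did not pass. Without the 2 eye cups farthest from the median rod sum, r was 0.87 for Cry1, 0.91 for Cry2 and −0.76 for Dbp, and with group means subtracted it was 0.71, 0.75 and −0.77.

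The other 7 members did not pass. Per2 was at r = −0.64 (permutation p = 0.0242, adjusted p = 0.0834), Clock at 0.57 and Per3 at −0.46, and Npas2, Per1, Nr1d1 and Nr1d2 lay between 0.11 and 0.40. Of the other clock genes, Arntl followed the rod sum most closely, with Pearson r = 0.97 (permutation p = 1.00e-05, adjusted p = 0.000545) and Spearman rho = 0.97 (permutation p = 2.00e-05, adjusted p = 0.000912), and the r of Rora and Rorb were 0.94 and 0.93. The permutation p of Arntl for r, 1e-05, is the smallest that 100000 resamples can give. All values of a library share its depth and scaling.

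**Figure D4:**
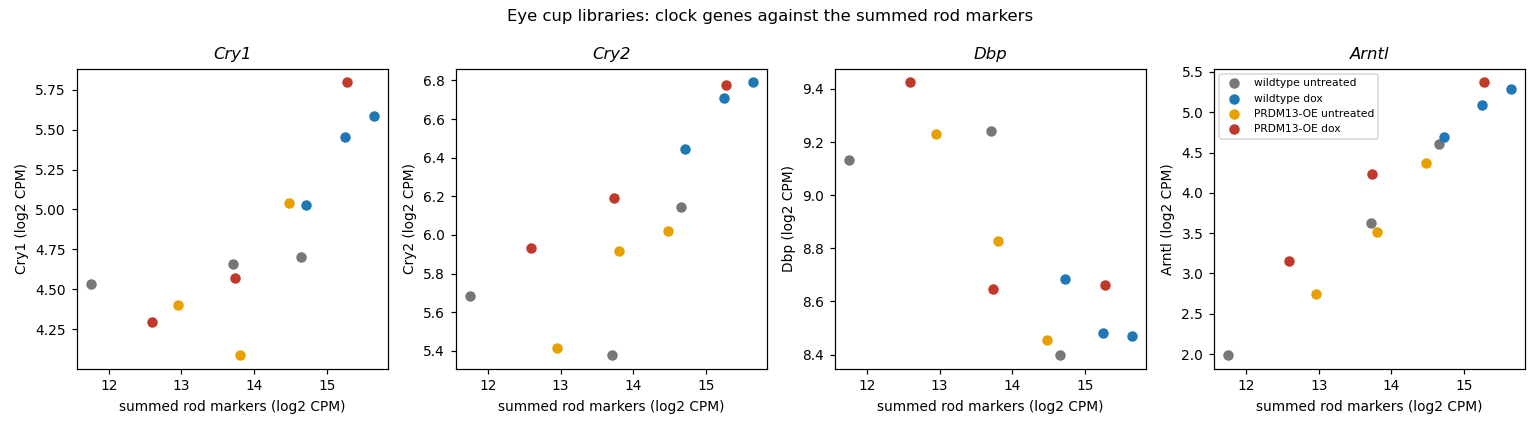
Cry1, Cry2, Dbp and Arntl against the summed rod markers in the 12 eye cups, both as log2 CPM, with 1 point per library coloured by group. Cry1, Cry2 and Arntl are high where the rod sum is high, and Dbp is low there.

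The tissues themselves were compared in the untreated wildtype mice, with each mouse as a block, and here 6 of the 10 members passed, 4 higher and 2 lower in the retina, while 12672 of 26034 (48.7%) of all genes passed. DESeq2 also called 6 members, and 13559 of the 21491 genes it tested (63.1%), so that the members' share was near the background in both. The members' median log2-fold change was 0.26, compared with 0.05 over all genes (and 0.27 with library size in place of TMM factors). Both Cryptochromes were higher in the retina. In the deposited FPKM values given above, the ranges of the 12 retinas and the 12 eye cups did not overlap for these 6 members and overlapped for the other 4. The rod marker sums given above show that the eye cups held RNA of rods in varying amounts, and its part in these differences was not tested.

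Cry2 had a log2-fold change 1.57, SE 0.20, edgeR adjusted p = 3.55e-05 and Cry1 a log2-fold change 1.49, SE 0.25, edgeR adjusted p = 0.000237. Clock was also higher in the retina (log2-fold change 1.09, SE 0.18, edgeR adjusted p = 0.000293), as was Nr1d2 (log2-fold change 0.53, SE 0.13, edgeR adjusted p = 0.00440). Lower in the retina were Dbp (log2-fold change −1.30, SE 0.19, edgeR adjusted p = 9.33e-05) and Per2 (log2-fold change −0.88, SE 0.19, edgeR adjusted p = 0.00155). Npas2 (log2-fold change −1.04, SE 0.60, edgeR adjusted p = 0.175), Per1 (log2-fold change 0.30, SE 0.14, edgeR adjusted p = 0.0868), Per3 (log2-fold change 0.13, SE 0.19, edgeR adjusted p = 0.590) and Nr1d1 (log2-fold change 0.21, SE 0.15, edgeR adjusted p = 0.267) did not pass. Npas2 passed without the untreated PRDM13-OE mouse 3 (log2-fold change −1.05, edgeR adjusted p = 0.00659), which entered the shared fit and had 2 Npas2 counts in its eye cup. Per1 passed without the untreated wildtype mouse 2 (log2-fold change 0.45, edgeR adjusted p = 0.0387), and Per1 and Nr1d1 passed with library size in place of TMM factors (edgeR adjusted p = 0.00979 and 0.0258).

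The counts of the other lists stand beside the 12672 of 26034 (48.7%) of all genes that passed between the untreated wildtype tissues. Of the 18 other clock genes, 9 were higher and 2 lower in the untreated wildtype retina than in the eye cup. Among those with the smallest adjusted p were Rora (log2-fold change 1.94, SE 0.25, edgeR adjusted p = 3.97e-05), Usp2 (log2-fold change 1.12, SE 0.17, edgeR adjusted p = 0.000112), Nfil3 (log2-fold change 1.55, SE 0.24, edgeR adjusted p = 0.000146) and Btrc (log2-fold change 1.09, SE 0.17, edgeR adjusted p = 0.000172). Rora encodes a receptor that activates Arntl against NR1D1, and NFIL3 competes with DBP at D-boxes. Of the 10 input and output genes tested, 5 were higher and 3 lower, with Adcy1 (log2-fold change 3.43, SE 0.44, edgeR adjusted p = 3.84e-05), Th (log2-fold change 3.26, SE 0.63, edgeR adjusted p = 0.000757) and Aanat (log2-fold change −6.97, SE 0.71, edgeR adjusted p = 6.25e-06) the 3 with the smallest adjusted p. Aanat, the enzyme that makes the melatonin precursor, was at 13.3, 22.1 and 17.9 CPM in the untreated wildtype eye cups and 0.292, 0.109 and 0.0476 CPM in the retinas, where it had at most 6 counts in a library. Of the 6 glucocorticoid-responsive genes, Klf9 was higher in the retina (log2-fold change 1.08, SE 0.17, edgeR adjusted p = 0.000213) and Sgk1 (log2-fold change −1.91, SE 0.25, edgeR adjusted p = 4.27e-05) and Tsc22d3 (log2-fold change −1.37, SE 0.18, edgeR adjusted p = 5.33e-05) were lower, and 4 of the 7 immediate early genes passed, Nr4a1 (log2-fold change 1.50, SE 0.23, edgeR adjusted p = 0.000141), Junb (log2-fold change −2.45, SE 0.42, edgeR adjusted p = 0.000355) and Fos (log2-fold change 1.05, SE 0.23, edgeR adjusted p = 0.00169) with the smallest adjusted p.

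Whether dox or genotype acted on the clock genes differently in the 2 tissues was tested by interaction terms with the mouse as a block. For dox in wildtype mice, 0 of 26034 (0%) of all genes passed, and of the members 3 (Per2, Cry2 and Nr1d1) had an unadjusted edgeR p under 0.05, with 0 called by edgeR or DESeq2. The members' terms lay between −0.87 and 0.63. Cry2 had the largest, −0.87 (SE 0.28, edgeR adjusted p = 0.194), where a negative value means a smaller difference between dox and no dox in the retina than in the eye cup. Over all genes 4721 had an unadjusted edgeR p under 0.05 and DESeq2 called 1384, and the median term was −0.16 (−0.27 with library size in place of TMM factors). For genotype in mice with dox, 0 of 26034 (0%) of all genes passed, and 0 members had an unadjusted edgeR p under 0.05 or were called by DESeq2. The members' terms lay between −0.24 and 0.51 around a median of 0.14 over all genes (0.19 with library size), of which 1311 had an unadjusted edgeR p under 0.05 and DESeq2 called 13.

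Retina and eye cup came from the same mouse, so their clock gene levels could be set side by side mouse by mouse. Over the 12 mice, the log2 CPM of retina and eye cup were correlated for each gene, and 0 of 21269 genes (0%) passed at a permutation p adjusted over all genes under 0.05, so 0 members did. By unadjusted permutation p, 2 members (Per1 and Cry2) were under 0.05, as were 1486 of all genes (6.99%). Per1 had the highest r of the members, with Pearson r = 0.87 (permutation p = 0.000290, adjusted p = 0.268) and Spearman rho = 0.87 (permutation p = 0.000560, adjusted p = 0.458). Mice with more Per1 in the retina had more in the eye cup, and r was 0.80 without the 2 mice farthest from the median retina value and 0.85 with group means subtracted (exact permutation test within groups, p = 0.00463, adjusted p = 0.818). With library size in place of TMM factors r was 0.95 (permutation test, adjusted p = 0.0425) and Per1 passed, as 1 of 5 genes (0.0235% of the 21269).

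PRDM13-OE mouse 3 with dox was the highest in Per1 in both tissues, at 182 CPM in the retina and 148 CPM in the eye cup. The untreated PRDM13-OE mouse 3, at 97.4 CPM, had the lowest retina and, at 71.8 CPM, the second lowest eye cup value after untreated wildtype mouse 1. Cry2 had Pearson r = 0.64 (permutation p = 0.0251, adjusted p = 0.648) and Spearman rho = 0.76 (permutation p = 0.00562, adjusted p = 0.575), and Cry1 Pearson r = 0.56 (permutation p = 0.0557, adjusted p = 0.726) and Spearman rho = 0.80 (permutation p = 0.00307, adjusted p = 0.530). For the remaining 7 members r lay between 0.06 (Npas2) and 0.54 (Nr1d1), with Dbp at 0.19 and Per2 at 0.24. With group means subtracted the r of the 9 members other than Per1 lay between −0.09 (Npas2) and 0.59 (Cry1), with Nr1d1 at −0.03 and Dbp at 0.40. The median r of the 10 members was 0.31, compared with 0.08 over all genes tested.

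Dbp and Arntl peak at opposite times of day in mouse tissues, so their ratio moves with the hour, and it is given here as the log2 of Dbp over Arntl CPM. In the retina it was 1.98, 1.79 and 1.66 in PRDM13-OE with dox, 1.88, 1.55 and 1.72 in untreated PRDM13-OE, 1.95, 1.69 and 1.60 in wildtype with dox and 1.17, 1.60 and 1.43 in untreated wildtype. The first 3 of these groups overlapped with one another, and the untreated wildtype retinas were lower than the PRDM13-OE retinas with dox and overlapped with the rest by a single retina. In the eye cup it was 4.42, 6.28 and 3.29, 5.31, 4.08 and 6.49, 3.19, 3.40 and 3.98 and 3.79, 7.15 and 5.61 in the same order. The eye cup ratios spread over a wider range and were highest in the untreated wildtype eye cup 2, the untreated PRDM13-OE eye cup 3 and the PRDM13-OE eye cup 2 with dox, the 3 eye cups with the lowest rod marker sums. The hour of dissection and the tissue content cannot be told apart in these ratios.

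**Figure D5:**
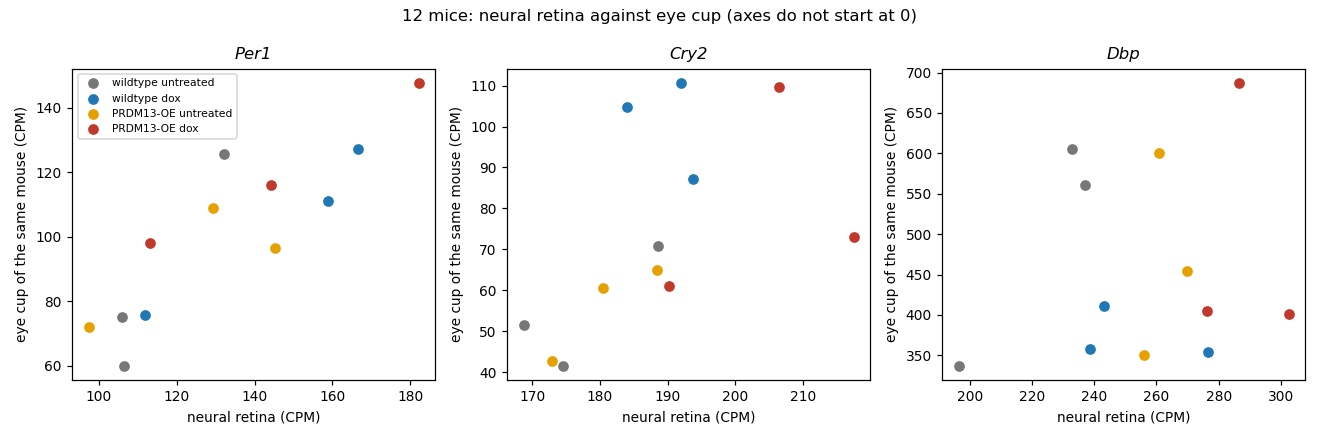
Per1, Cry2 and Dbp in the neural retina (x axis) and the eye cup of the same mouse (y axis) in CPM, with 1 point for each of the 12 mice coloured by group. The Pearson r is 0.87 for Per1, 0.64 for Cry2 and 0.19 for Dbp, none of which passed after adjustment, and the differences between the genes were not tested.

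Over the 12 retinas the members had correlations of both signs with one another. Dbp was with Clock at r = −0.78 and with Cry2, Nr1d1 and Per1 at 0.49, 0.45 and 0.41, values that are given as a description, since the libraries share groups, depth and scaling. In the eye cups Dbp was at r = −0.73 with Cry2, −0.65 with Clock and 0.52 with Per2. The genes outside the set with the pattern most like that of Dbp in the retina, among 14853 genes with a mean of at least 1 CPM, were Rab1b (0.96), Txn2 (0.95), Ctbp1 (0.93), Tpgs1 (0.93) and Prpf31 (0.93), with r in parentheses. In the eye cup, among 15688 genes, they were Sp5 (0.95), Prdx4 (0.94), Coasy (0.94), Fuca1 (0.94) and Rabac1 (0.94). For Npas2 they were Dph2 (0.91), Spag1 (0.88), Smurf1 (0.87), Gm16477 (0.85) and Tarbp2 (0.83) in the retina and Gm42528 (0.96), Cidea (0.95), Nsl1 (0.95), Pstpip2 (0.95) and C330011M18Rik (0.94) in the eye cup. No other clock gene of the lists was among these.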

How the data were processed

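RNA from the neural retinas and eye cups of 12 mice was sequenced by Novogene, and the submitters' processing notes name CASAVA, HISAT2 and the mouse genome GRCm39 (mm39) without versions. The counting tool, the gene annotation and the strandedness of the libraries are not given in the sources used here. The authors deposited raw counts per gene and FPKM values for the 24 libraries, both used here, and their own fold changes and p-values, which were not used. The members and all gene lists were chosen with earlier results of these data known.

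Counts were tested in R 4.3.3 with edgeR 4.0.16 (quasi-likelihood F-test, TMM factors, a summed count of 10 or more per gene in the libraries of a fit, Benjamini-Hochberg adjustment over all genes tested). Comparisons of 2 groups used the 6 libraries concerned, the interaction of genotype and dox the 12 libraries of a tissue, and comparisons between tissues all 24 libraries with the mouse as a block. "Passed" or "called" means an adjusted p under 0.05. The SE is the size of the log2-fold change divided by the square root of F. CPM values used TMM factors over the 12 libraries of a tissue. DESeq2 1.42.0 was an alternative, as were plain library sizes without TMM, no filter on low counts, edgeR's filterByExpr, a block for the replicate number, all 12 libraries in one fit, marker sums as covariates, a log2-fold change cutoff of 1 and leaving out each library. Correlations used log2(CPM + 0.1) and 100000 permutations (Python 3.11.15, NumPy 2.4.6), and the relation to rod markers was added after the values were seen. Replicate numbers come from the labels, which mark separate mice. All 10 members are covered by a range in each comparison. The other named genes were, of the other clock genes, up to 5 that passed with the smallest adjusted p, and of each further list up to 3, and Arntl, and Th and Opn4 in the retina, were named outside this rule after their values were seen, as were genes called by DESeq2 alone. One gene that this rule names is not reported here. Fitting was tested on simulated data.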

Additional observations from a re-analysis of the deposited data

Results flagged for a closer look

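In 3 genes named beside the clock genes, the difference between dox and no dox in the retina was itself different between the genotypes, by the edgeR test of the interaction of genotype and dox, and none of the 10 clock genes met this. Groups of 3 mice are too small for a search for single outlying samples. Adcy1 had an interaction term of −1.12 (SE 0.11, edgeR adjusted p = 1.48e-05) on the log2 scale, since it was lower with dox in PRDM13-OE retinas by a log2-fold change of −1.12 and differed by 0.0017 in wildtype retinas. All 3 PRDM13-OE retinas with dox were below the other 9, and the term passed under all 18 settings tried. Drd4 had a term of 0.65 (SE 0.15, edgeR adjusted p = 0.0181), with 0.65 in PRDM13-OE and 0.0047 in wildtype. It no longer passed with the lens crystallin sum as a covariate (0.57, adjusted p = 0.125 by edgeR) or without PRDM13-OE retina 1 or 2 with dox (edgeR adjusted p = 0.0552 and 0.0771). Rorb had a term of 0.68 (SE 0.17, edgeR adjusted p = 0.0414), with 0.31 in PRDM13-OE and −0.37 in wildtype, neither of which passed in edgeR on its own, while DESeq2 called the one in wildtype. The term did not pass with DESeq2 (0.67, adjusted p = 0.0525), with filterByExpr or with a replicate block (edgeR adjusted p = 0.0536 and 0.0585), or without any of the PRDM13-OE retinas with dox, the untreated PRDM13-OE retina 2, wildtype retinas 1 or 3 with dox, or the untreated wildtype retinas 1 or 2, with edgeR adjusted p-values of up to 0.113. The part of the lower rod marker sum of the PRDM13-OE retinas with dox in these terms was not tested.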

How the results depend on the processing

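Depth was ample for 9 of the members (at least 293 counts in every library) and limited Npas2. A count of 0 members in the eye cup, where the SEs were wider than in the retina, does not show that the clock genes did not differ. The number of members called between the genotypes in retinas with dox, 1 as reported, was 0 with a log2-fold change cutoff of 1, with 12 libraries in one fit and with the lens crystallin covariate, 2 with DESeq2, 3 with library size in place of TMM factors and 3 without a filter on low counts. Leaving out 1 library at a time gave 0 to 1. In the comparisons reported with 0 members called, wildtype retinas with and without dox gave 1 without a filter and 0 to 1 with 1 library left out (Per1). PRDM13-OE retinas with and without dox gave 1 with library size (Cry2) and 1 without a filter (Per1). The genotypes with dox in the eye cup gave 0 to 1 with 1 library left out (Cry1). Wildtype eye cups with and without dox gave 3 with DESeq2, 3 with library size, 1 without a filter (Cry2) and 0 to 1 with 1 library left out (Cry1 without wildtype eye cup 3 with dox, Cry2 without the untreated wildtype eye cup 1). The relation of retina and eye cup gave 1 with library size (Per1, among 5 genes in all), and the tissue comparison, 6 as reported, gave 4 to 8. The cause of these changes was not tested.

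A replicate block on the mouse numbers gave 2 members (Per3 and Dbp) for genotype in retinas with dox. In no comparison were all 3 same-number correlations over 0.1 (they ran from −0.54 to 0.59). For genotype in retinas with dox they were 0.056, 0.065 and 0.082, and all 3 libraries were most like the one with their own number. The labels mark separate mice, and whether a number stands for something the mice shared was not tested. The block changed the number of members called in no other comparison by more than 1.5 times. Over all members, comparisons and settings, 144 of 1910 log2-fold changes had the other sign, and 0 of these passed in either fit.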

Other observations

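Over the 12 eye cups, 8 of the 18 other clock genes passed in the relation to the summed rod markers that was chosen after the values were seen, compared with 22.8% of all genes. Beside Arntl, Rora and Rorb these included Btrc (Pearson r = 0.78), Usp2 (0.72) and Nfil3 (0.71), which were high where the rod sum was high, and Tef (−0.81), which was low there, with permutation p-values adjusted over all genes of 0.0130 to 0.0482. Rora, Btrc, Usp2 and Nfil3 were also higher in the untreated wildtype retina than in the eye cup. Tef, a relative of DBP that binds the same D-box, was at 310.3, 385 and 336 CPM in the untreated wildtype eye cups and 340.0, 363 and 343 CPM in the retinas of the same mice (log2-fold change −0.14, SE 0.13, edgeR adjusted p = 0.427).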
